A study of Mus musculus with 6 samples.

Results

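The cathepsins are proteases of the lysosome, and the cystatins are small proteins that block them. The genes described here are 8 lysosomal cathepsins (Ctsa, Ctsb, Ctsc, Ctsd, Ctsh, Ctsl, Ctss and Ctsz) and 2 inhibitors, Cst3 (cystatin C) and Cstb (cystatin B), chosen by gene symbol. All 10 were found among the 21515 genes of the deposited table, and 9 of the 10 were abundant enough to be tested.

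RNA was sequenced from C57BL/6 mouse bone marrow cells immortalised by the leukaemia fusion NUP98-NSD1 together with NRASG12D, a permanently active RAS protein. Every library shares these oncogenes, the lentiviral Cas9 and its dTomato reporter. The 3 knockout libraries (replicates 1, 4 and 5) carried guide T44 against Clec12a, an inhibitory lectin receptor of myeloid cells. The 3 control libraries (replicates 6, 8 and 9) carried a guide against the bacterial gene lacZ and keep Clec12a. Per the labels' protocols, cells were sorted singly, expanded, and stimulated for 48 hours with 15% serum, human interleukin-6 (10 ng/mL), mouse interleukin-3 (6 ng/mL) and mouse stem cell factor (20 ng/mL). Only 1 Clec12a guide was profiled, and the p-values measure the spread between libraries that may each descend from 1 sorted cell. The question asked is how the loss of Clec12a alters expression of these protease and inhibitor genes.

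Cathepsins are made as inactive precursors, tagged with mannose 6-phosphate in the Golgi and matured in acidic lysosomes. Most are cysteine proteases (B, C, H, L, S and Z), while cathepsin D is an aspartic protease and cathepsin A a serine carboxypeptidase. Cystatins fit into the active site of cysteine cathepsins: cystatin C is secreted, and cystatin B stays in the cytosol and nucleus, where it can catch enzyme that leaks from lysosomes. In myeloid cells these proteases degrade engulfed and recycled proteins, trim the invariant chain of MHC class II, and, in the case of cathepsin C, activate the serine proteases of neutrophil granules.

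The unit is FPKM, which divides a gene's fragments by its transcript length and by the mapped fragments of the library, so levels of different genes can be set side by side. Summed over all genes, FPKM reached 590211 to 699113 in the knockout group but 534439.9 to 554534 in the control group, so this total went with the guide. Estimated depth was 33700000 to 61000000 fragments per library. Knockout replicate 4 was the least like the control libraries (median Pearson r of 0.902 across 9830 genes, against 0.940 and 0.955 for the other two knockout libraries). Clec12a itself (chromosome 6, 129342691 to 129365303, GRCm38) stood at 169.7, 129 and 94.5 FPKM in knockout replicates 1, 4 and 5 and at 157, 246 and 280.1 FPKM in controls, so the groups overlapped (adjusted p = 0.130). Since Cas9 cuts often leave the transcript in place, its level is a weak check of the labels. The myeloid genes Spi1 and Elane were at 190.5 to 265 and 801 to 4769 FPKM in all libraries, but other progenitor markers were low or uneven. Mpo, the myeloperoxidase of early granules, was at 0.289, 1.202 and 9.36 FPKM in knockout and 455, 737 and 10.2 FPKM in control libraries (adjusted p = 0.0763), Kit ranged from 0.715 to 27.6 FPKM, and Cd34 did not exceed 0.127 FPKM. Defining genes of B cells, T cells and red cells reached at most 0.160, 0.659 and 1.65 FPKM.

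Together the 10 genes took up 0.475% to 0.728% of the FPKM total of a library. Ctsd was the most abundant member in all 6 libraries, with a mean level of 1351 ± 458 FPKM (SD over 6 libraries), which placed it 39th among all genes of the table. Ctsz followed at 572 ± 57.8 FPKM and exceeded Ctsb in 5 of 6 libraries. The next levels were those of Ctsb (412 ± 124 FPKM), Cstb (379 ± 162 FPKM) and Ctsa (296 ± 43.7 FPKM). These neighbours changed places between libraries, with Ctsb above Cstb in 4 of 6 and Cstb above Ctsa in 3 of 6. Below them came Cst3 (225 ± 51.3 FPKM), Ctsc (149 ± 57.7 FPKM), Ctsl (92.7 ± 44.6 FPKM) and Ctss (31.7 ± 16.5 FPKM). Cst3 exceeded Ctsc, and Ctsl exceeded Ctss, in all 6 libraries. Ctsh was near 0, with a highest value of 0.899 FPKM. Ctsz was the steadiest tested member, its highest library being 1.32 times its lowest, and Ctss the most variable at 4.35 times.

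**Figure D1:**
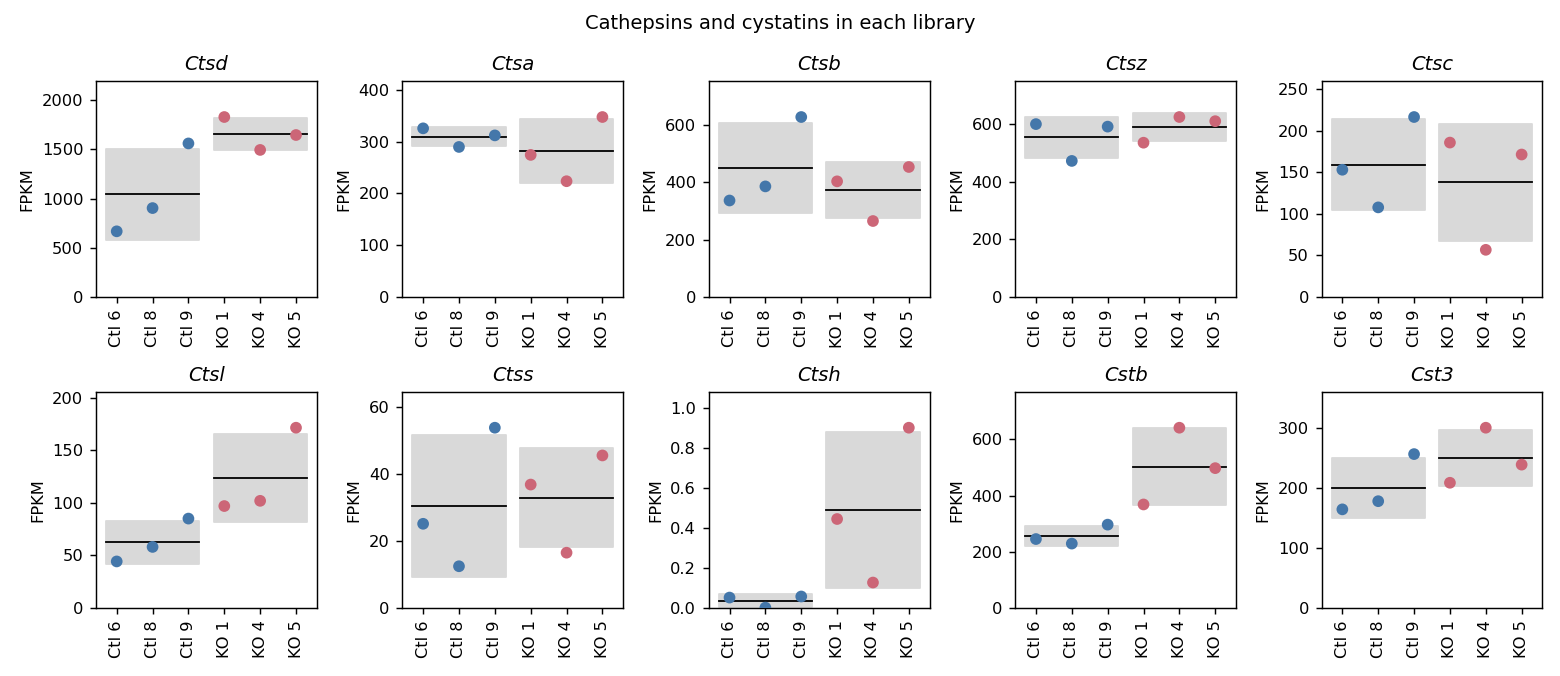
FPKM of the 10 genes in the 3 control (Ctl, blue) and 3 knockout (KO, red) libraries, each panel on its own linear axis from 0. Lines are group means and grey bands ± 1 SD (n = 3). The groups separate for Ctsl, Cstb and the near-absent Ctsh, and overlap for the other genes.

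None of the 9 tested members passed the threshold (limma on log2(FPKM + 1), adjusted p under 0.05 over 9830 genes), where 1.90% of all genes did (1.38% higher and 0.519% lower in the knockout). At an unadjusted p under 0.05 there were 2 of 9, Ctsl and Cstb, beside 27.9% of all genes, and limma without the intensity trend gave 3 of 9, with again none after adjustment. The groups did not overlap for Ctsl and Cstb, again 2 of 9 and both higher in the knockout, beside 36.3% of all genes (14.5% higher and 21.8% lower). With 9 genes, these counts are too small to set the members apart from all genes. Their median log2 fold change was 0.23, with 6 members above 0 and 3 below, and the median of all tested genes was -0.06. Scaling libraries to equal totals moved the all-gene median to -0.24. In bulk RNA, fewer cells of a type and less RNA per cell cannot be told apart.

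**Figure D2:**
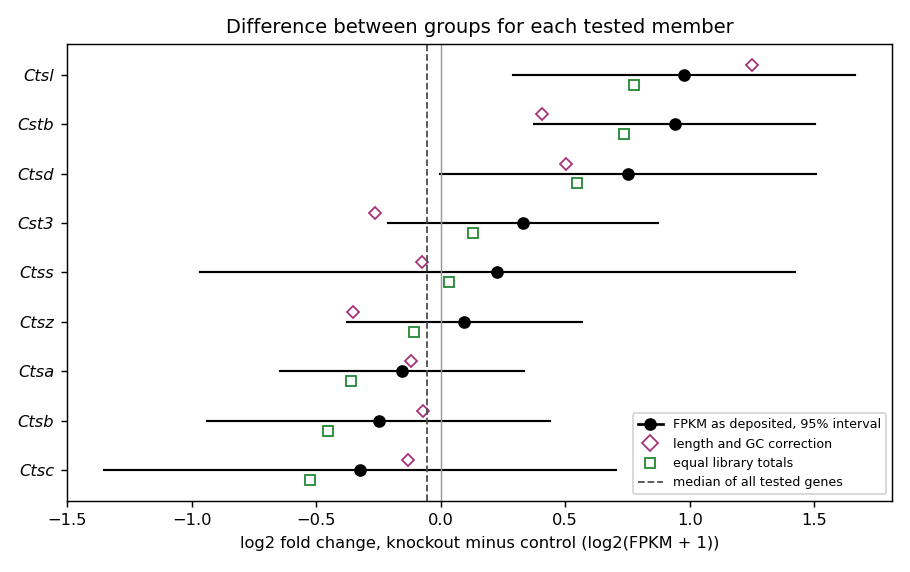
Log2 fold change of each tested member (horizontal axis, knockout minus control on the log2(FPKM + 1) scale) with its 95% interval (black), adjusted for the length and base composition of transcripts (diamonds), and with equal library totals (squares). The dashed line is the median of all tested genes at -0.06. Ctsl and Cstb lie farthest to the right at 0.98 and 0.94, and the correction brings Cstb to 0.41 and Cst3 to -0.27.

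The aspartic protease gene Ctsd (chromosome 7, 142375911 to 142388038, minus strand, GRCm38) encodes one of the main protein-degrading enzymes of the lysosome. It stood at 1830.4, 1496 and 1647 FPKM in knockout replicates 1, 4 and 5 and at 667, 904 and 1562 FPKM in control replicates 6, 8 and 9. The 3 knockout libraries were alike, while control replicate 9 sat inside their range and the other two controls lay far below. The group means were 1658 ± 168 and 1044 ± 463 FPKM (log2 fold change 0.75, SE 0.33, 95% interval -0.0024 to 1.51, adjusted p = 0.180). Without control replicate 9 the log2 fold change was 1.09 (adjusted p = 0.0789), and without control replicate 6 it was 0.48 (adjusted p = 0.448). It was 0.50 after the length and GC correction and 0.39 with quantile normalization. Gm49369, a gene model that covers 34.4% of the exon bases of Ctsd on the same strand, was listed at 0 to 2.82 FPKM.

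Many lysosomal genes carry, near their start, an element recognised by TFEB, a transcription factor that switches on lysosome production, and the core of that element is the palindrome CACGTG. The promoters below are those RefSeq windows (GRCm38.p6, 250 bases before to 50 after an annotated start) of the members in which this core occurs. They are shown because their genes had the core in common but differed in the direction of their values. Windows were found for 7 of 10 members, and for Ctsa 1 of 2 is shown. The other Ctsa window (chr2:164832622-164832921) lies at the start of the gene in GENCODE (164832873) and held neither motif. The Ctsa window shown lies inside the gene, downstream of that start. The Ctsl window also lies within the GENCODE span of its gene (64359337 to 64370890), as does part of the Ctsd window. Capitals mark CACGTG, or the longer TCACGTGA where it is present (palindromes, so both strands read alike, and each TCACGTGA contains CACGTG).
Ctsd, chr7:142387778-142388077, minus strand: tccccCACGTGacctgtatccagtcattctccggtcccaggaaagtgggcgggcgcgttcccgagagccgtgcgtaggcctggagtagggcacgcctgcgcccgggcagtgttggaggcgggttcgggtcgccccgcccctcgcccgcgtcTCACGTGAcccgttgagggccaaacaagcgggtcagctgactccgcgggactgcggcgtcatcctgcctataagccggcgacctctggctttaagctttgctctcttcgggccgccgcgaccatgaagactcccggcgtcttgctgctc
Ctsa, chr2:164833523-164833822, plus strand: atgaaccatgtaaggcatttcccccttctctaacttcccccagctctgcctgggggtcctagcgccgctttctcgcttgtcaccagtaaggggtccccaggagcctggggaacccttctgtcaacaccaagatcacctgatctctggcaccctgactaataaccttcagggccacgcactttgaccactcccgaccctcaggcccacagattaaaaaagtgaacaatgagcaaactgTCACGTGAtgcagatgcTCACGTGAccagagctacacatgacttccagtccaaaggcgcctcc
Ctsl, chr13:64370471-64370770, minus strand: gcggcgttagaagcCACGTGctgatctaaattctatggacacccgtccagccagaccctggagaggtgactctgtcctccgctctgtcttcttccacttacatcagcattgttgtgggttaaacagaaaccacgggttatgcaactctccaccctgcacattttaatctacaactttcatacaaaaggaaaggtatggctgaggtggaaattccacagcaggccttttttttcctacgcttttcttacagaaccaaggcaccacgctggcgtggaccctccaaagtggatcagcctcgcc

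The Ctsd window held 2 copies of CACGTG, starting 245 and 98 bases before the start, and the nearer one lay within a TCACGTGA that begins 99 bases before it. In the Ctsa window, 2 copies of TCACGTGA lay close together, 13 bases before and 4 bases after the start. The window of Ctsl held 1 CACGTG, 236 bases before the start, without the flanking bases. Among all 32851 windows, 7.15% held CACGTG and 0.974% held TCACGTGA. The windows of Cst3, Ctsc, Ctss and Ctsz held neither. Also searched was the interferon-stimulated response element, which was found in the window of Ctss alone, beside 3.44% of all windows. Of the 3 genes shown, Ctsl and Ctsd had positive log2 fold changes and Ctsa a negative one, none past the threshold. Tfeb itself, chosen after its values were seen, had 4.42, 6.02 and 2.62 FPKM in knockout replicates 1, 4 and 5 beside 1.53, 1.14 and 2.35 FPKM in control replicates 6, 8 and 9 (adjusted p = 0.0951 for a log2 fold change of 0.98).

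Ctsl (chromosome 13, 64359337 to 64370890, minus strand) encodes cathepsin L, an endopeptidase that breaks down lysosomal cargo. Its levels were 96.7, 101.7 and 171 FPKM in knockout replicates 1, 4 and 5 and 43.99, 57.8 and 84.8 FPKM in control replicates 6, 8 and 9. Every knockout library was above every control in FPKM as deposited, though knockout replicates 1 and 4 and control replicate 9 were close. This separation depends on library totals, which were 604448 and 699113 in knockout replicates 1 and 4 and 550034 in control replicate 9. The means were 123 ± 41.7 and 62.2 ± 20.8 FPKM (log2 fold change 0.98, SE 0.30, 95% interval 0.29 to 1.66, adjusted p = 0.0981), which did not pass. Its log2 fold change ran from 0.72 to 1.22 when single libraries were left out. With equal library totals it was 0.77 (adjusted p = 0.140), and with the length and GC correction it stood at 1.25 (adjusted p = 0.0707). Gene models on the opposite strand cover 26.9% of its exon bases and others on its own strand 6.09%, and the sources used here do not say if counting respected strand.

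Cstb (chromosome 10, 78425669 to 78427622, plus strand) encodes the cytosolic inhibitor cystatin B. It was measured at 368, 642 and 498 FPKM in knockout replicates 1, 4 and 5 and at 245, 228 and 296 FPKM in control replicates 6, 8 and 9. The controls lay close together and all knockout libraries were above them. The means were 503 ± 137 and 256 ± 35.3 FPKM (log2 fold change 0.94, SE 0.25, 95% interval 0.38 to 1.504, adjusted p = 0.0809), and this lowest adjusted p among the members did not pass. Correcting for length and GC brought the log2 fold change to 0.41 (adjusted p = 0.191). Cstb has the shortest transcript of the members (603 bases), and no other gene overlaps its exons.

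Cst3 (chromosome 2, 148871722 to 148875692, minus strand), the gene of the secreted inhibitor cystatin C, had values of 209, 301 and 239 FPKM in knockout and 165, 178 and 257 FPKM in control libraries. Control replicate 9 was above knockout replicates 1 and 5, so the groups overlapped. The means were 249.9 ± 47.0 and 199.9 ± 49.9 FPKM (log2 fold change 0.33, 95% interval -0.21 to 0.87, adjusted p = 0.373), and the length and GC correction turned the sign (-0.27, adjusted p = 0.392).

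The remaining cysteine cathepsins differed more within the groups than between them. Ctsb (chromosome 14, 63122462 to 63145923, plus strand) encodes cathepsin B, which cuts both inside proteins and from their ends. It stood at 403, 265 and 453 FPKM in knockout replicates 1, 4 and 5 and at 337, 386 and 628 FPKM in control replicates 6, 8 and 9. Control replicate 9 was the highest and knockout replicate 4 the lowest (log2 fold change -0.25, 95% interval -0.94 to 0.44, adjusted p = 0.6004). Without control replicate 9 the log2 fold change was 0.02. On the opposite strand, Fdft1 covers 12.8% of its exon bases.

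Ctsc (chromosome 7, 88278085 to 88310888, plus strand) encodes the dipeptidyl peptidase that activates the serine proteases of neutrophil granules. It was at 186, 56.7 and 172 FPKM in knockout and at 153, 108 and 217 FPKM in control libraries. Knockout replicate 4 stood far below the other 5 libraries, and without it the log2 fold change moved from -0.32 (95% interval -1.35 to 0.70, adjusted p = 0.652) to 0.22 (adjusted p = 0.678). Among 5 tested proenzymes that cathepsin C activates none passed, and their median was -0.14. Elane, which encodes neutrophil elastase, averaged 3274 ± 1400 against 1886 ± 1029 FPKM (adjusted p = 0.278). Prtn3, proteinase 3, was at 1509.9 ± 707 against 1241 ± 392 FPKM (adjusted p = 0.710). Ctsg, the serine protease cathepsin G, was at 1031 ± 529 against 1264 ± 818 FPKM (adjusted p = 0.908). Knockout replicate 4, lowest for Ctsc, was the highest library for Elane (4769 FPKM) and Prtn3 (2301 FPKM).

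Ctss (chromosome 3, 95526786 to 95556403, plus strand), whose product cleaves the invariant chain in antigen-presenting cells, was at 36.8, 16.4 and 45.6 FPKM in knockout libraries. In control replicates 6, 8 and 9 it was at 25.1, 12.4 and 53.9 FPKM. The highest and the lowest value were both controls, and the knockout libraries lay between them (log2 fold change 0.23, 95% interval -0.97 to 1.42, adjusted p = 0.794). Its sign turned without knockout replicate 5 (-0.06) or control replicate 8 (-0.27), and after the length and GC correction (-0.08). Among 3 tested MHC class II genes none passed. Cd74, the invariant chain, was at 8.97 ± 7.93 against 5.43 ± 3.05 FPKM (adjusted p = 0.692), H2-DMa at 12.8 ± 3.11 against 10.3 ± 2.29 FPKM (adjusted p = 0.472) and H2-DMb1 at 67.2 ± 15.5 against 53.9 ± 15.2 FPKM (adjusted p = 0.407).

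Ctsz (chromosome 2, 174427493 to 174439039, minus strand) encodes a carboxypeptidase, cathepsin Z. Values were 536, 625 and 610.3 FPKM in knockout replicates 1, 4 and 5 and 600.2, 472 and 591 FPKM in control replicates 6, 8 and 9. Both groups covered almost the same range (log2 fold change 0.09, 95% interval -0.38 to 0.57, adjusted p = 0.783), and the sign turned with equal totals (-0.11), quantile normalization (-0.28) or the length and GC correction (-0.35). Ctsa (chromosome 2, 164832873 to 164841032, plus strand) encodes the carboxypeptidase that also protects lysosomal neuraminidase and beta-galactosidase. It was at 274, 224 and 348 FPKM in knockout and 326, 289.8 and 312 FPKM in control libraries. The knockout libraries enclosed the control range (log2 fold change -0.15, 95% interval -0.64 to 0.33, adjusted p = 0.651). Without knockout replicate 4 the log2 fold change was 1.25e-05. Neurl2 and Pltp on the opposite strand share 17.4% of its exon bases.

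Ctsh (chromosome 9, 90054152 to 90076089, plus strand) encodes the aminopeptidase cathepsin H. It was listed at 0.443, 0.125 and 0.899 FPKM in knockout replicates 1, 4 and 5 and at 0.0503, 0 and 0.0557 FPKM in control replicates 6, 8 and 9. It reached 1 FPKM in no library and was not tested, although the groups did not overlap. From the estimated depths and its longest transcript these values correspond to about 61.0, 17.5 and 83.1 fragments in knockout libraries and about 8.42, 0 and 6.95 in controls.

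Knockout replicate 4 was the lowest of the 6 libraries for Ctsb, Ctsc and Ctsa and the highest for Ctsz, Cst3 and Cstb. It also had the largest FPKM total (699113). Control replicate 9 was the highest of 6 for Ctsb, Ctsc and Ctss. With group means removed, Pearson's r over the 6 libraries was 0.82 for Ctsb with Ctsc, 0.85 for Ctsb with Ctss and 0.88 for Ctsc with Ctss. Ctsb was as close to Ctsd (0.84) and Ctsl (0.81), and Cst3 to Cstb (0.85). Pairs between the inhibitors and the cathepsins ran from -0.50 for Ctsc with Cstb, through -0.12 for Ctsb with Cstb, to 0.62 for Ctsd with Cst3 and 0.69 for Ctsz with Cstb, so no clean division into sets was seen. The 36 pairs share the same 6 libraries, their depth and their scaling, and the values are descriptive.

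Markers of myeloid cells did not share 1 pattern over the libraries. Adgre1, which encodes the macrophage surface protein F4/80, was at 47.9, 22.1 and 81.7 FPKM in knockout and 53.6, 53.2 and 98.4 FPKM in control libraries. The integrin gene Itgam was at 49.0, 23.7 and 46.9 FPKM in knockout and 20.5, 39.2 and 76.8 FPKM in control libraries. Adgre1 was lowest in knockout replicate 4 and Itgam in control replicate 6. For both, control replicate 9 was the highest library, as for Ctsb, Ctsc and Ctss. Of 12 monocyte and macrophage markers 6 were tested and none passed, with 3 above and 3 below 0. The monocyte receptor genes Cd14 and Ccr2 differed most and in opposite directions, without overlap, which held for 36.3% of all tested genes. Cd14 was at 325, 471 and 323 FPKM in knockout and 60.5, 51.4 and 185 FPKM in control libraries (log2 fold change 2.13, adjusted p = 0.0513). Ccr2 was at 124, 65.0 and 82.4 FPKM in knockout and 191, 299.9 and 551 FPKM in control libraries (log2 fold change -1.84, adjusted p = 0.0520). Knockout replicate 4, low for Adgre1, was the highest of the 6 libraries for Cd14 and Ly6c2 (2677 FPKM). The summed level of the 12 markers was 2774 to 3442 FPKM in knockout and 1542 to 2615 FPKM in control libraries, mostly Ly6c2. The macrophage genes Mrc1, Cx3cr1 and C1qa did not exceed 1.40, 0.0867 and 1.19 FPKM. The part of these markers in the members' values was not tested.

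**Figure D3:**
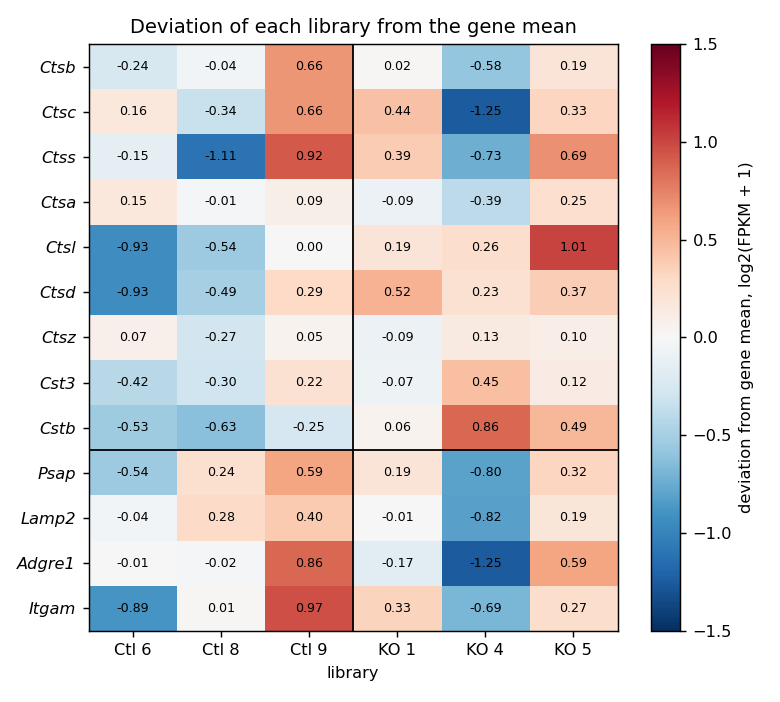
Deviation of each library (columns: controls left of the line, knockouts right) from the gene's mean over 6 libraries, in log2(FPKM + 1) units, for the 9 tested members and, below the line, 2 lysosomal genes and 2 myeloid surface markers. Ctsc, Psap and Adgre1 share the low value of knockout replicate 4, at -1.25, -0.80 and -1.25, where Cstb is at 0.86.

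Ratios within a library do not depend on how library totals are scaled, but they were not corrected for length and GC. That correction moved the log2 fold change of Cstb from 0.94 to 0.41 and of Ctsb from -0.25 to -0.07. For Ctsd it went from 0.75 to 0.50 and for Ctsl from 0.98 to 1.25. The ratios given here were chosen after the values were seen and were not tested. The ratio of Ctsd to Ctsb FPKM was 4.54, 5.65 and 3.63 in knockout replicates 1, 4 and 5 and 1.98, 2.34 and 2.49 in control replicates 6, 8 and 9. The groups did not overlap, and control replicate 9, which matched the knockout libraries in Ctsd level, grouped with the controls. For Ctsl to Ctsb the ratio was 0.240, 0.384 and 0.378 against 0.131, 0.150 and 0.135, again with no overlap. Cstb to Ctsb stood at 0.912, 2.42 and 1.097 against 0.727, 0.592 and 0.472. These ratios share the denominator Ctsb, which was lowest in knockout replicate 4 and highest in control replicate 9, so they are not separate results. Cst3 to Ctsb also did not overlap, at 0.518, 1.14 and 0.528 against 0.489, 0.462 and 0.409, although Cst3 itself overlapped. The share of all gene pairs whose ratio separates the groups was not computed, and 36.3% of single genes did so. Set against the sum of the 6 cysteine cathepsins, Cstb was 0.292, 0.603 and 0.343 in knockout and 0.211, 0.221 and 0.188 in control libraries. That sum itself was alike in the groups (1259 ± 194 and 1257 ± 282 FPKM). The summed inhibitors Cst3 and Cstb were at 752 ± 183 and 456 ± 83.8 FPKM, without overlap in FPKM as deposited. Unlike the ratios, these sums depend on library totals. The inhibitor sum was 577 FPKM in knockout replicate 1 and 553 FPKM in control replicate 9, whose library totals were 604448 and 550034.

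**Figure D4:**
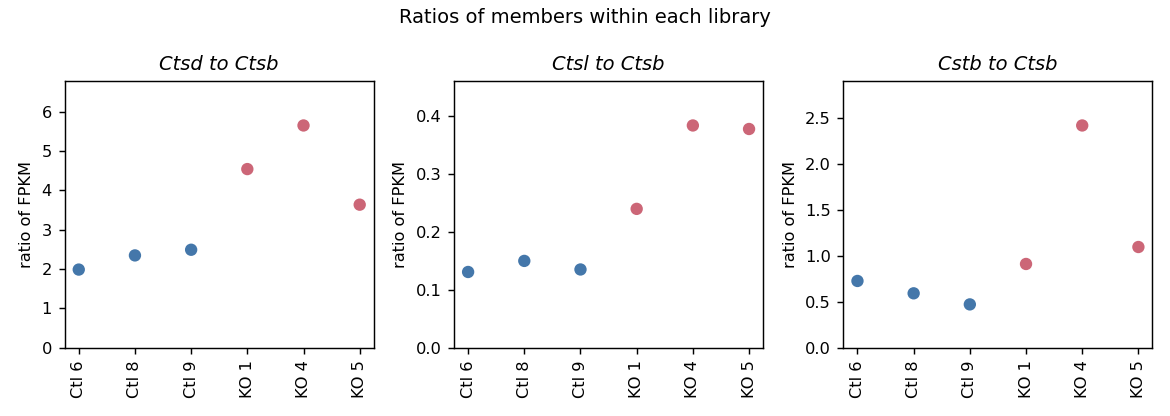
Ratio of FPKM within each library (vertical axes from 0) for Ctsd, Ctsl and Cstb, each divided by Ctsb, in control (blue) and knockout (red) libraries. Values are not corrected for length and GC, and all panels share the denominator Ctsb. All knockout libraries lie above all controls in each panel, with the lowest Ctsd to Ctsb ratio of a knockout library at 3.63 and the highest of a control at 2.49.

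Mouse myeloid cells also express the stefin A cluster on chromosome 16, a group of cytosolic inhibitors related to cystatin B. Of 20 listed cystatin and stefin genes outside the members, 18 were in the table and 8 were tested. None passed, but all 8 had positive log2 fold changes, with a median of 1.63 beside -0.06 for all tested genes. For 4 of the 8 the groups did not overlap (14.5% of all genes were higher without overlap). Csta2 was at 1625, 2326 and 2382 FPKM in knockout and 414, 1322 and 1714 FPKM in control libraries, which overlapped (log2 fold change 1.09, adjusted p = 0.191). Its level exceeded that of Ctsd, the most abundant member, in 4 of 6 libraries. Stfa3 was at 522, 889 and 748 against 72.4, 265 and 326 FPKM (log2 fold change 1.92, adjusted p = 0.0817). Stfa2l1, named after its values were seen, was at 367, 369.8 and 139 against 0.956, 31.4 and 38.8 FPKM (log2 fold change 4.29, adjusted p = 0.0662). Control replicate 6 was the lowest library for each of these 3 genes.

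Markers of mature neutrophils, cells that also express stefin A genes, stood beside this group. Of 8 listed, 7 were tested, 2 rose and none fell, with a median of 1.01. Among all tested genes 1.38% rose and 0.519% fell. The summed level of the 8 listed markers was 149 to 372 FPKM in knockout and 88.6 to 243 FPKM in control libraries. Of this, Mmp8 made up 194, 36.6 and 126 FPKM in knockout and 80.7, 142 and 218 FPKM in control libraries. Mmp8 itself had a negative log2 fold change (-0.49, adjusted p = 0.596). Ly6g, the surface marker of neutrophils, was at 118, 74.0 and 33.3 FPKM in knockout and 1.92, 6.48 and 8.05 FPKM in control libraries and rose (log2 fold change 3.53, adjusted p = 0.0215). That call ended without knockout replicate 1, knockout replicate 4 or control replicate 8, with adjusted p of 0.0668, 0.0943 and 0.0675, and without the filter (0.105). Retnlg, a resistin-like gene, rose from 0.780, 0.641 and 1.64 FPKM in control to 27.7, 10.7 and 16.5 FPKM in knockout libraries (log2 fold change 3.19, adjusted p = 0.00795), a call that ended without the filter (0.0636). The secondary granule gene Ngp was at 23.1 ± 4.15 against 31.6 ± 48.9 FPKM (adjusted p = 0.524) and Ltf at 0.934 ± 0.558 against 1.84 ± 1.37 FPKM (adjusted p = 0.367). The part of these markers in the stefin values was not tested.

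Stfa2 was at 358, 377 and 148 FPKM in knockout and 4.45, 31.8 and 52.5 FPKM in control libraries (log2 fold change 3.68, SE 0.76, adjusted p = 0.0513). It passed without control replicate 6 (log2 fold change 2.70, adjusted p = 0.0314) and without control replicate 9 (4.35, adjusted p = 0.0386). Copies in this cluster resemble each other: 15.9% of the 50-base stretches of the Stfa2 transcript and 24.6% of those of Stfa2l1 occur in another gene, most often in each other, and 22.0% of those of Csta2 occur in another gene, most often Gm5483. Levels of single stefin genes are therefore uncertain where the authors' counting could split their reads. Cst7, a cystatin of leukocytes outside this cluster, was at 82.7 ± 36.7 against 73.0 ± 42.5 FPKM (adjusted p = 0.754).

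**Figure D5:**
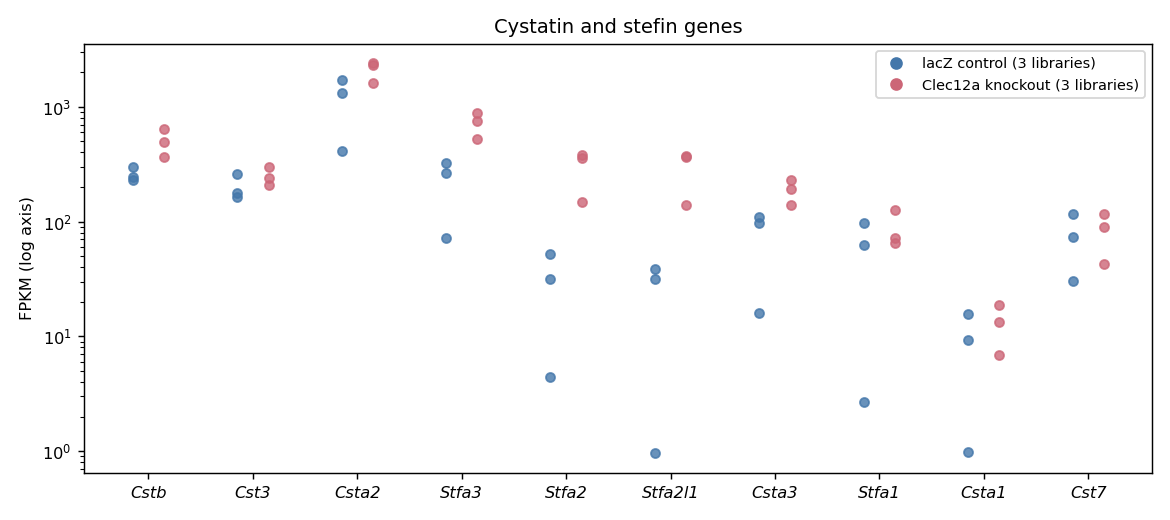
FPKM (log axis) of Cstb, Cst3 and the 8 other tested cystatin and stefin genes in 3 control and 3 knockout libraries. Stfa3, Stfa2, Stfa2l1 and Csta3 separate by group, with Stfa2 at 148 to 377 FPKM in knockout and 4.45 to 52.5 FPKM in control libraries.

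Inhibitors of other families showed no call among 3 tested genes, with a median of 0.17. Slpi, a blocker of elastase and cathepsin G, averaged 2627 ± 1647 against 1133 ± 346 FPKM (adjusted p = 0.163), and its knockout mean rests on replicate 4 at 4491 FPKM. Serpinb1a, an inhibitor of neutrophil serine proteases, was at 309.7 ± 71.1 against 290.3 ± 45.5 FPKM (adjusted p = 0.848), and Serpinb6a at 3.67 ± 0.282 against 3.18 ± 0.652 FPKM (adjusted p = 0.608). Of 14 cathepsins outside the members only Ctsg and the little-studied cysteine protease gene Ctso were tested, and neither passed (Ctso 4.49 ± 1.71 against 7.50 ± 4.18 FPKM, adjusted p = 0.361).

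Genes that deliver enzymes to the lysosome gave no call among 13 tested, with 4 above and 9 below 0 and a median of -0.30. M6pr, a mannose 6-phosphate receptor that carries cathepsin precursors, was at 378 ± 83.8 against 464 ± 93.1 FPKM (adjusted p = 0.434). Psap, the precursor of the saposins, was at 302 ± 111 against 343 ± 126 FPKM (adjusted p = 0.756), and the retromer gene Vps29 at 277 ± 41.1 against 242 ± 24.3 FPKM (adjusted p = 0.543). The 2 other retromer genes listed lay lower in every knockout library, Vps35 at 99.2 ± 35.0 against 150.3 ± 8.71 FPKM (adjusted p = 0.167) and Vps26a at 93.0 ± 28.4 against 134 ± 2.88 FPKM (adjusted p = 0.176). Among these 13 genes, 3 were lower and 1 was higher without overlap. Of all tested genes, 21.8% were lower and 14.5% higher without overlap, and 13 genes are too few to set the list apart. Other lysosomal hydrolases also gave no call among 26, with 11 above and 15 below 0 and a median of -0.16. Gusb, beta-glucuronidase, was lower in every knockout library (118 ± 23.5 against 166 ± 14.0 FPKM, adjusted p = 0.147). In that list, 2 of 26 were lower and 4 were higher without overlap. The acid ceramidase gene Asah1 was at 144 ± 63.3 against 228 ± 80.6 FPKM (adjusted p = 0.259) and the hexosaminidase gene Hexa at 182 ± 19.4 against 171 ± 22.2 FPKM (adjusted p = 0.752).

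The 1 call among the pathway genes was in the membrane list. There 1 of 9 rose and none fell, with a median of 0.0036, where 1.38% of all tested genes rose and 0.519% fell. Cd63, a tetraspanin of late endosomes and lysosomes, was at 6.55, 9.36 and 4.14 FPKM in knockout and 0.963, 1.93 and 1.33 FPKM in control libraries (log2 fold change 1.64, SE 0.30, adjusted p = 0.0398). All knockout libraries were above all controls, but the call ended without knockout replicate 1 or 4 or without any 1 control, with adjusted p from 0.0642 to 0.118. Without the filter on low values the adjusted p was 0.133. Lamp1 and Lamp2, the main lysosomal membrane glycoproteins, differed in sign and did not pass, at 104 ± 38.3 against 63.4 ± 14.6 FPKM (adjusted p = 0.198) and 122 ± 40.5 against 159 ± 24.2 FPKM (adjusted p = 0.334). Cd68, the macrophage member of that family, was at 186 ± 26.2 against 130.4 ± 69.0 FPKM (adjusted p = 0.245).

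Over the 6 libraries, the 3 genes outside the lists whose log2(FPKM + 1) followed Ctsd most closely were Cd82, Anxa2 and Arg1 (Pearson r of 0.999, 0.997 and 0.996 among 9427 named genes, of which 86 had r of at least 0.95). Cd82, a tetraspanin, was at 43.4, 36.9 and 39.5 FPKM in knockout replicates 1, 4 and 5 and at 18.8, 24.8 and 39.3 FPKM in control replicates 6, 8 and 9. Anxa2, a membrane-binding annexin, was at 1055, 713 and 717 against 126, 244 and 734 FPKM. Arg1, the arginine-degrading enzyme arginase 1, was at 119, 35.3 and 77.5 against 0.125, 4.55 and 65.0 FPKM. Like Ctsd, each had control replicate 9 near or within the knockout range and control replicate 6 lowest. This likeness follows from their choice by correlation with Ctsd over the same 6 libraries.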

How the data were processed

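Bulk RNA-seq of 6 libraries was used, 3 per group, with groups from the sample labels and table columns matched to sample titles. FPKM values were deposited as 1 table with a row per gene symbol. The genome mm10 and the tools STAR 2.5.2b and FastQC are named, per the submitters' processing notes. How fragments were counted, with which annotation and whether by strand, is not stated there. Because FPKM values are not counts, count models were not applied.

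Depth was estimated from 4151 genes with 1 GENCODE M21 (GRCm38) transcript, where FPKM times length should step by 1 fragment. Only 56.7% to 65.9% of low values came within 0.1 of a whole fragment, where random values give 20%, so fragment counts could not be rebuilt and depths are estimates. Of the table's symbols, 21414 matched GENCODE directly, 75 by synonym and 26 not at all.

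Genes reaching 1 FPKM in 3 or more libraries were tested on log2(FPKM + 1) with limma 3.58.1 in R 4.3.3 (intensity trend, two-sided, knockout minus control, Benjamini-Hochberg adjustment over 9830 genes, threshold 0.05). Fold changes on this scale understate those of low genes. "Rose" and "fell" are used only past the threshold. Lists are described by counts and medians, with no set test. Errors are SD with n = 3 unless stated. The procedure was tested on simulated data.

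The members and lists were chosen with earlier results of these data known. The text names every member, Clec12a, pathway genes past the threshold, the 3 most abundant tested genes per pathway list, and the 3 genes most correlated with the most abundant member. Other genes, marker genes included, were chosen after their values were seen. Alternatives were a pseudocount of 0.1, no filter, a filter at mean FPKM 5, median-ratio scaling, equal totals, quantile normalization, no trend, a spline correction (4 degrees of freedom) for transcript length and GC content (9820 genes), and leaving out each library. Promoters are RefSeq windows. Python 3.11.15 with pandas 2.3.3 and matplotlib 3.10.9 was also used. The level of 1 listed marker gene is not reported here.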

Additional observations from a re-analysis of the deposited data

How the results depend on the processing

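No member passed the threshold under any of the 14 alternatives, with the lowest adjusted p of a member at 0.0707. Ctsd, Ctsl and Cstb kept positive log2 fold changes in all 14. Over all genes, 187 passed, against 23 with no filter, 97 with a filter at mean FPKM 5 and 120 with equal totals, and 20 to 197 when 1 library was left out. With equal totals 71 rose and 49 fell, against 136 and 51 as deposited, and the share that rose was 59.2% against 72.7%; with no filter, 22 rose and 1 fell. Of the pathway genes, 1 passed (Cd63), against 0 with no filter or with the filter at mean FPKM 5, and 0 to 2 when 1 library was left out (Stfa2 and Stfa2l1 without control replicate 6, Gm2a and Stfa2 without control replicate 9). The cause of these changes was not tested, beyond the smaller number of samples or the other set of genes that an alternative has by construction.

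Signs turned only for values that did not pass. After the length and GC correction the log2 fold changes were -0.0759 for Ctss, -0.35 for Ctsz, -0.27 for Cst3, -0.056 for Cd74, -0.0719 for H2-DMb1, -0.17 for Hexa, -0.38 for Prtn3 and -0.0456 for Serpinb1a. With equal totals they were -0.11 for Ctsz, -0.11 for Hexa, -0.13 for Serpinb1a and -0.0184 for Vps29. With quantile normalization they were -0.28 for Ctsz, -0.0615 for Hexa, -0.195 for Prtn3, -0.20 for Serpinb1a and -0.0509 for Vps29. Leaving out 1 library gave -0.32 to 1.25e-05 for Ctsa, -0.43 to 0.0171 for Ctsb, -0.63 to 0.22 for Ctsc, -0.27 to 0.74 for Ctss, -0.0167 to 0.16 for Ctsz, -0.24 to 1.04 for Cd74, -0.91 to 0.41 for Ctsg, -0.12 to 0.53 for Prtn3, -0.51 to 0.16 for Psap and -0.0687 to 0.27 for Serpinb1a. No paired analysis was possible because the groups share no replicate numbers. With 3 libraries per group, the 95% intervals of the members were 0.95 to 2.39 log2 units wide. The alternatives for Ly6g and Retnlg were added after seeing the data.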
